A study of Mus musculus with 3 samples.

Results

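Drd1 neurons are the spiny projection neurons of the striatum that carry the D1 dopamine receptor. Here those with many RNA molecules of interferon-stimulated genes were compared with those that held none, in the nucleus accumbens of mice. Cells entered when they had at least 300 genes, at most 20% mitochondrial UMIs, 1500 to 8000 UMIs, at least 1 UMI of Drd1, none of Adora2a (the receptor of the other spiny projection class) and at least 1 UMI of Snap25, Syt1, Meg3 or Snhg11 together. A UMI is a molecular tag that counts 1 captured RNA molecule once. Interferon-high cells held at least 3 UMIs of Isg15, Ifit1 and Ifit3 summed, and interferon-negative cells held 0. By this rule 1420 of the 11625 deposited cells were Drd1 neurons, of which 110 were high, 1035 were negative and 275 lay between with 1 or 2 UMIs. The 3 gate genes chose the cells and are not results.

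All cells came from a single group of Thy1::ChR2 mice, in which the Thy1 promoter drives the light-gated channel channelrhodopsin in many projection neurons. Every sample received FLiCRE during light stimulation in the nucleus accumbens, and the tissue was a coronal slab of 400 um. FLiCRE is a virally delivered system in which light together with raised calcium frees a transcription factor (tTA) from the membrane through a protease (TEV), and tTA then drives a reporter gene. The mCherry feature of the matrix is taken as that reporter. High and negative cells therefore come from tissue with the same transgene, virus delivery and light. Whether a single cell carried the channel or the constructs is not given by the labels. No unstimulated or uninjected group was analysed here. The 3 libraries were read from the suffix of the cell barcodes, and a suffix could not be tied to a numbered replicate of the labels, so that library numbers are only names. The labels do not say how many animals stand behind a library.

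Type I and type II interferons signal through membrane receptors and JAK kinases to transcription factors. A complex that holds STAT2 and IRF9 binds the interferon-stimulated response element in promoters. The induced genes include sensors of foreign nucleic acid, effectors that block viral translation or budding, GTPases that attack intracellular vacuoles, the antigen presentation machinery of MHC class I, and chemokines. Microglia, astrocytes and endothelial cells are well known to answer interferon, and neurons also carry the receptors.

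Library 1 held 1 high and 59 negative cells and was dropped, since an arm needed 10 cells. Library 2 held 95 high and 786 negative cells, and library 3 held 14 and 190. The high cells of library 2 had a median gate sum of 5 UMIs and a highest of 22, and those of library 3 a median of 4.5 and a highest of 26. Next to the gate on its inner side stood 29 and 6 cells with exactly 3 UMIs, and just outside it 58 and 4 cells with exactly 2, in libraries 2 and 3. Counts were summed per library and arm. The high sums held 375030 and 72760 UMIs and the negative sums 2401712 and 650189, so that 1 UMI was worth 13.7 CPM (UMI counts scaled to a common total) in the high sum of library 3. High cells were deeper, with a median of 3620 against 2768 UMIs in library 2 and 5142.5 against 3059 in library 3. The difference of 1468 UMIs ± 871 (SD, n = 2 libraries) had p = 0.5 in a 2-sided exact sign-flip test, the smallest p that 2 libraries can give. A gate of 3 UMIs is reached more easily in a deep cell, and beyond a fit against negative cells matched on UMIs the part of depth was not tested. Barcode sequences were shared by libraries 1 and 2 (13), 1 and 3 (7) and 2 and 3 (22), and no high cell carried one.

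The label of the cells was checked against 8 lists of glial, vascular and immune markers, 75 of 78 genes being in the matrix. In library 2, 25 of 95 high cells gave more than 0.8% of their UMIs to these lists, against 40 of 786 negative cells. In library 3 these were 2 of 14 and 6 of 190. The 25 cells were led by astrocyte markers in 9, oligodendrocyte markers in 9, microglia markers in 2, macrophage and dendritic markers in 2, mural and fibroblast markers in 2 and endothelial markers in 1. Both cells of library 3 were led by astrocyte markers. Among high cells of library 2, those over the limit had a median of 4 UMIs of the 4 neuron genes of the rule, against 25 within it, although their median depth was higher (5060 against 3425 UMIs). Their share of UMIs in 32 genes of spiny neuron identity was 0.263% (median) against 1.61%, and 88% of them held exactly 1 Drd1 UMI, against 50% within the limit. As a group these 27 high cells go against the label of Drd1 neuron, and the part that free RNA or doublets have in them was not tested.

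**Figure D1:**
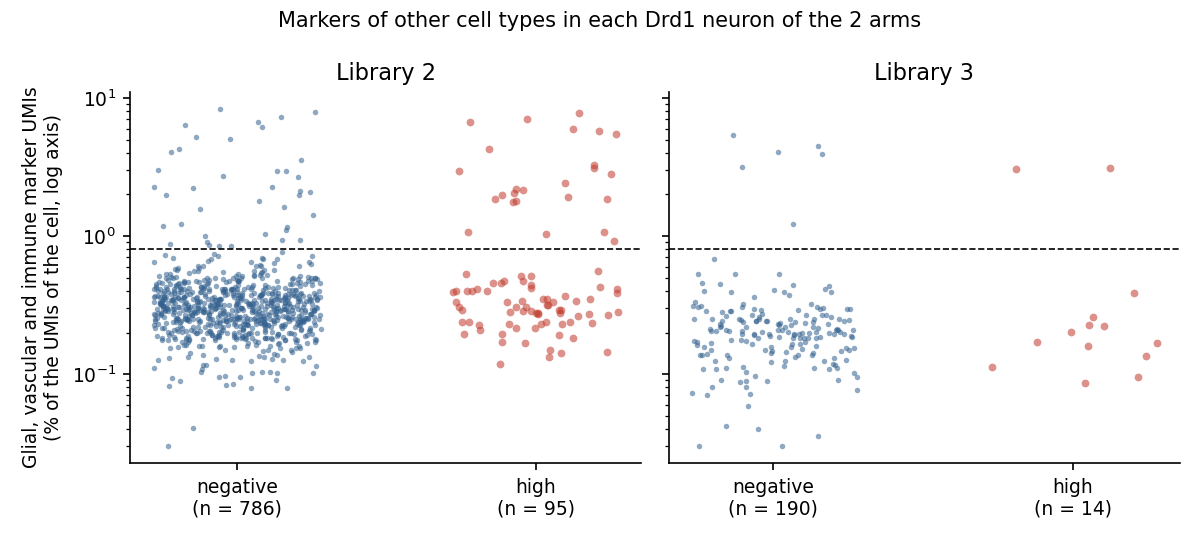
Percent of the UMIs of each cell that belong to 8 lists of glial, vascular and immune markers (log axis), for negative (blue) and high (red) Drd1 neurons of libraries 2 and 3. Points are cells, spread sideways at random, values under 0.03% are drawn at 0.03%, and the dashed line is the limit of 0.8%. In library 2 the high cells fall into a band at or below 0.556% and a second band that starts at 0.921% and holds 25 cells.

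Test calls and many list values are therefore given for all cells of the rule and for cells within the limit of 0.8%, which was set after the values had been seen. Levels of many single genes are given within the limit only. Within it were 70 and 12 high cells and 746 and 184 negative cells, with sums of 257564 and 58850 UMIs (high) and 2279705 and 616260 UMIs (negative). There 1 UMI was worth 3.88 CPM and 17.0 CPM in the high sums of libraries 2 and 3. By the rule, the 8 marker lists together stood at 11364 against 4296 CPM in library 2 and 7422 against 3864 CPM in library 3, high against negative. Within the limit they stood at 3075 against 3019.7 CPM in library 2 and 1886 against 1999 CPM in library 3. The limit sets that second pair, so it is no finding. Of the 75 markers, 12 were at 0 UMIs in both high sums within the limit, among them Tmem119, Itgax, Mrc1, Agt, Cspg4, Pecam1, Gzmb and Tagln.

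The quasi-likelihood test of edgeR, with the library as block, Benjamini-Hochberg adjustment and 4 sums, called 0 of 7738 genes (0.0%) at an adjusted p under 0.05, with 780 genes (10.1%) at an unadjusted p under 0.05. With 4 sums and a library term, 1 residual degree of freedom remained. DESeq2 called 58 of 6687 genes (0.867%), 55 higher (0.822%) and 3 lower (0.0449%) in high cells, and edgeR with its default prior called 131 of 7738 (1.69%), 124 higher (1.6%) and 7 lower (0.0905%). Of the 58 genes, 56 were also among the 131. Within the limit, edgeR again called 0 of 7138 (0.0%), with 409 (5.73%) at an unadjusted p under 0.05, DESeq2 called 2 (0.028%) and the default prior 20 (0.28%), of which 17 were higher (0.238%) and 3 lower (0.042%). Because the designed test called no gene, levels are given for each library, and a gene is counted below where its CPM was at least 2-fold higher in high cells in both libraries. That held for 213 of 7738 genes tested (2.75%) by the rule and for 56 of 7138 (0.785%) within the limit, and at least 2-fold lower held for 141 (1.82%) and 121 (1.7%).

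Members of 8 interferon-response lists made up 39 of the 213 genes at least 2-fold higher in both libraries by the rule, and 16 of the 56 within the limit. Of their 190 entries in the matrix (Gbp6 is listed under a pair of identifiers), 74 passed the filter on low counts by the rule and 45 within the limit. A gene of low level could pass through its high arm alone, so these are not all members. Counts and medians over tested interferon genes therefore lean upward, here and below, and are given as descriptions. The 39 were of 74 tested, and the median log2 fold change over the 74 was 1.80, against -0.01 for all genes tested. Within the limit the 16 were of 45, with a median of 0.68, against -0.00. DESeq2 called 17 of these genes higher by the rule, and within the limit both of the 2 genes it called were members, B2m among them. The default prior called 32 by the rule and 8 within the limit, among them B2m, H2-D1, H2-T23, Oasl2, Psmb10, Shisa5 and Tapbp. No member of the 8 lists was called lower by either.

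The promoters of these genes were read for the core of the interferon-stimulated response element, GAAA and GAAA parted by any 2 bases, on both strands (TTTC and TTTC on the reverse strand). The sequences are RefSeq's for build GRCm38.p6, from 250 bases before to 50 bases after each start. Of the 190 list entries in the matrix 148 had an entry, and 55 of these (37.2%) held the core, against 1079 of 27025 genes with an entry (3.99%) and 217 of 5999 genes tested (3.62%). By list, the core was found for 10 of 10 immunity GTPases, 7 of 14 sensors, 25 of 60 antiviral effectors, 5 of 20 genes of MHC class I presentation, 3 of 14 STAT and IRF genes, 5 of 19 interferons and chemokines, 0 of 8 receptors and kinases and 0 of 3 ISG15 conjugation genes, against 0 of 33 genes of oxidative phosphorylation. The sequences below, stretches of these windows around the core, are shown for members on which the results turn. Those for Stat2, B2m, Bst2 and H2-T23 belong to genes that stood higher in high cells both with and without the limit, and those for Igtp and Cxcl10 to genes whose high sum in library 3 was 0 within it. All lie before the start of transcription and read 5′ to 3′ on the strand of the gene, with the core in capitals (overlapping matches in Bst2 run on). They were picked, after their values had been seen, among members that hold the core, so it cannot separate the genes shown. A match is a description of letters and no evidence of binding.
Stat2 (chr10:128270248-128270330, plus strand): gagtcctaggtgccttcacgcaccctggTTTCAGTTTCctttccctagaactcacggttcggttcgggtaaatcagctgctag
B2m (chr2:122147503-122147602, plus strand): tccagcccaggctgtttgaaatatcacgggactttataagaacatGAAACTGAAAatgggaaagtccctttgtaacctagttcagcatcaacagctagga
Bst2 (chr8:71537542-71537641, minus strand): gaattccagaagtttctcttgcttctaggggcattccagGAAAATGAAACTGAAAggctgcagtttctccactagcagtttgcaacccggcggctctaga
H2-T23 (chr17:36032771-36032870, minus strand): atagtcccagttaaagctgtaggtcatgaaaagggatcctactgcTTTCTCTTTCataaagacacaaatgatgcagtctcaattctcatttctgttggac
Igtp (chr11:58199477-58199555, plus strand): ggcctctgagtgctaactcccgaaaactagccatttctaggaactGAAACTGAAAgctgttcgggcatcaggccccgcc
Cxcl10 (chr5:92349048-92349139, minus strand): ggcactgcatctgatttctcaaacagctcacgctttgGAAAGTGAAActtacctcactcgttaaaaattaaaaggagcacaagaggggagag

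Of 6 transcription factors and inhibitors of the pathway tested within the limit, 5 had higher CPM in high cells in both libraries and 1, the inhibitor Pias1, lower. Of all genes tested there, 25.2% were higher and 32.6% lower in both. Log2 fold changes here and below are from edgeR and given ± SE. Stat2 stood at 69.9 against 18.4 CPM in library 2 and 33.98 against 24.3 CPM in library 3, the latter from 2 high-cell UMIs, with a log2 fold change of 1.66 ± 0.34. Both libraries had the same direction, with a small step in library 3. Irf9, its partner in the complex, stood at 85.4 against 31.6 CPM in library 2 and 102 against 35.7 CPM in library 3, with 1.48 ± 0.30. Irf7, which sustains interferon production, stood at 34.9 against 13.2 CPM in library 2 and 33.98 against 9.74 CPM in library 3, with 1.5 ± 0.40, and its high sums held 9 and 2 UMIs. Stat2, Irf9 and Irf7 passed none of the 3 tests within the limit. Irf7 and Irf9 were among the 3 members at least 2-fold higher in both libraries, where 0.785% of all genes tested were. The median of the 6 was 1.49. Irf7 passed the filter only through its high sums, and Stat2 could not pass by its negative sums alone, so these values lean upward. Against negative cells matched on UMIs 4 members were tested, with a median of 1.02.

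Genes upstream of these factors gave values of both signs. The receptor chains Ifnar1 and Ifngr2 and the kinases Jak1 and Jak2 were tested within the limit, and their log2 fold changes ran from -0.41 to 0.68. None of the 4 was 2-fold higher in both libraries, none passed a test, and their standard errors ran from 0.28 to 0.38. Of 22 sensors of nucleic acid in the matrix only Tbk1, the kinase downstream of several of them, passed the filter within the limit, and it passed no test. The RNA sensors Ddx58 and Ifih1 held 3 UMIs each in the high sum of library 2 and 0 and 1 in that of library 3. Their far larger negative sums held 5 and 2 UMIs in library 2 and 3 and 0 in library 3. Levels of single sensors thus rest on very few UMIs. Together the 22 sensors stood at 175 against 83.8 CPM in library 2 and 136 against 74.6 CPM in library 3 within the limit. The 4 enzymes that attach or remove ISG15 were all below the filter. Together Uba7, Ube2l6, Herc6 and Usp18 stood at 58.2 against 16.7 CPM in library 2 and 33.98 against 1.62 CPM in library 3 within the limit, of which the last high value rests on 2 UMIs.

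Among antiviral effectors, which block viral replication or release, Oasl2 and Shisa5 passed within the limit with the default prior of edgeR, and 10 members did by the rule. Of all genes tested, 0.238% and 1.6% were called higher by that test. Oasl2, a relative of the 2′-5′ oligoadenylate synthetases, stood at 124 CPM in high against 14.04 CPM in negative cells of library 2, and 84.96 against 6.49 CPM in library 3, with a log2 fold change of 3.25 ± 0.31 and an adjusted p of 6.3e-10 with the default prior of edgeR. DESeq2 gave it an adjusted p of 0.0876. In library 3 this rests on 5 UMIs, 4 of them in 1 cell. Shisa5, an endoplasmic reticulum protein tied to p53 and interferon, stood at 241 CPM in high against 64.9 CPM in negative cells of library 2, and 221 against 35.7 CPM in library 3, with 2.10 ± 0.27. Its UMIs were spread over 34 of 70 and 10 of 12 high cells. Bst2 (tetherin, which holds budding virions) stood at 69.9 against 32.02 CPM in library 2 and 67.97 against 17.9 CPM in library 3 (1.31 ± 0.32). Rtp4 stood at 50.5 against 17.98 CPM in library 2 and 33.98 against 6.49 CPM in library 3 (1.63 ± 0.38). Ifi35 stood at 38.8 against 12.7 CPM in library 2 and 84.96 against 3.25 CPM in library 3 (2.23 ± 0.75). These 5 were the members at least 2-fold higher in both libraries, of 18 tested, where 0.785% of all genes tested were. The median of the 18 was 0.45. Oasl2, Rtp4 and Ifi35 passed the filter only through their high sums, and Bst2 could not pass by its negative sums alone. The count thus leans upward and is no support.

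For other effectors the difference was gone or smaller once cells over the limit were left out. By the rule Ifitm3, a membrane protein that blocks viral fusion, stood at 547 against 135 CPM in library 2 and 54.98 against 41.5 CPM in library 3, a log2 fold change of 1.79 ± 0.40. Within the limit it stood at 105 against 121 CPM in library 2 and 50.98 against 42.2 CPM in library 3, with -0.11 ± 0.26, so that its sign turned. Ifi27l2a went from 2.23 ± 0.53 by the rule to 0.38 ± 0.34 within the limit, and Xaf1 did not pass the filter on low counts there. By the rule 14 of 29 tested effectors were at least 2-fold higher in both libraries, where 2.75% of all genes tested were, and the median was 1.79. Ifit3b is a near copy of the gate gene Ifit3, and its reads cannot be told apart with certainty.

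**Figure D2:**
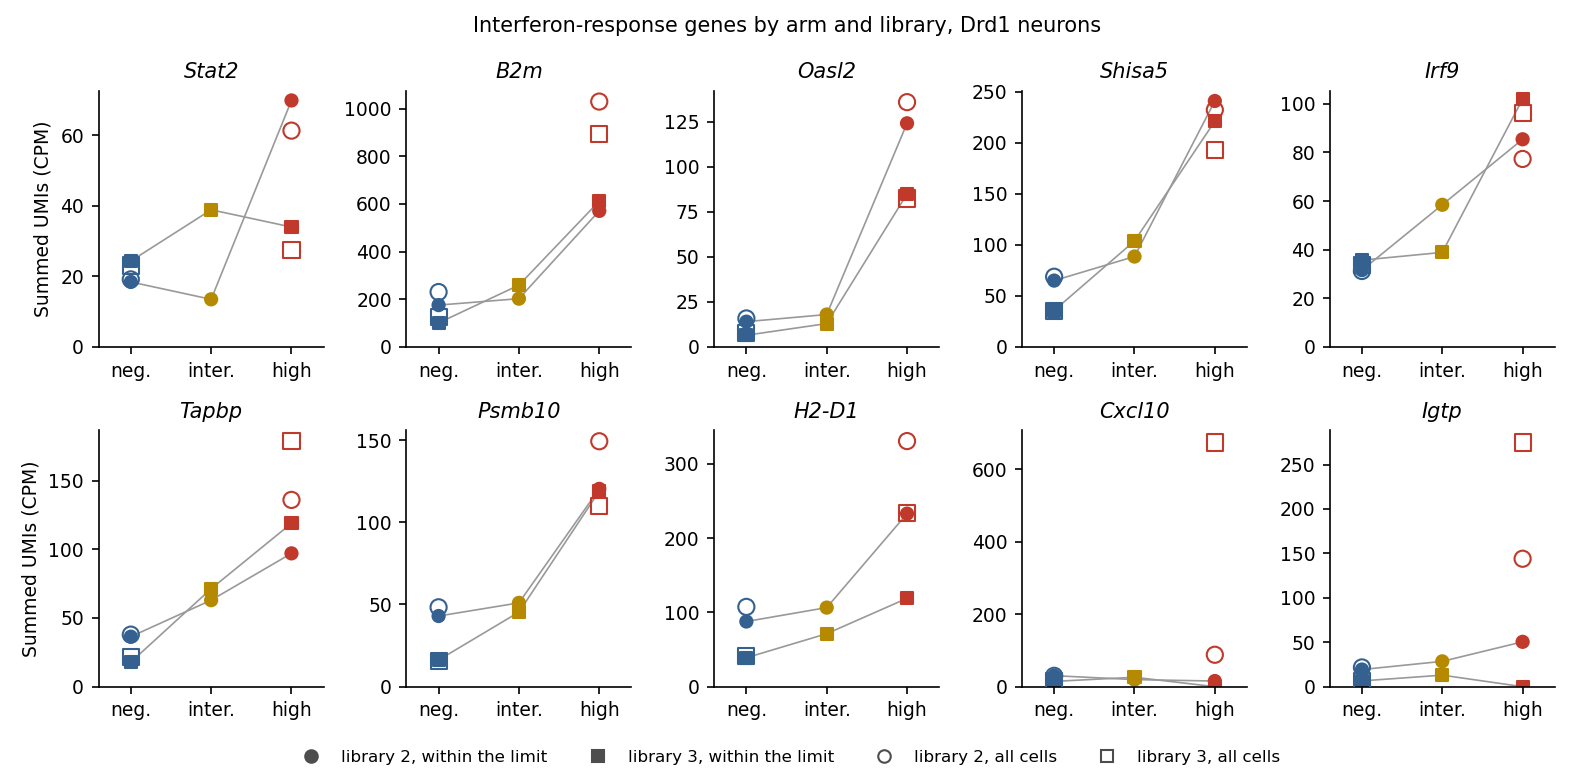
Summed CPM of 10 interferon-response genes in negative, intermediate (1 or 2 gate UMIs) and high Drd1 neurons. Filled symbols are cells within the limit and open symbols all cells, circles library 2 and squares library 3, and lines join the filled symbols of a library. B2m, Oasl2 and Shisa5 are highest in the high arm of both libraries in both sets, whereas the high values of Cxcl10 and Igtp drop to 15.5 and 50.5 CPM in library 2 and to 0 in library 3 within the limit.

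The immunity-related GTPases, which coat and disrupt vacuoles that hold pathogens, differed by the rule. Within the limit only 1 member passed the filter on low counts. By the rule all 8 tested members were at least 2-fold higher in both libraries, with a median log2 fold change of 3.41, and DESeq2 called 6 of them. Of all genes tested, 2.75% were at least 2-fold higher in both libraries and DESeq2 called 0.822% higher. Members of low level in negative cells, such as Igtp, Iigp1 and Gbp2, could not pass the filter without their high sums. The count and the median thus lean upward and are no support, whereas the sums over all 20 entries below do not depend on the filter. Igtp stood at 144 against 21.7 CPM in library 2 and 275 against 6.15 CPM in library 3. Iigp1 stood at 131 against 9.99 CPM in library 2 and 54.98 against 1.54 CPM in library 3. Gbp2, of a family of close copies, stood at 45.3 against 14.99 CPM in library 2 and 344 against 3.08 CPM in library 3. Within the limit the 20 entries in the matrix summed to 233 against 83.8 CPM in library 2 and 67.97 against 21.1 CPM in library 3, from 645 against 95.3 CPM in library 2 and 1031 against 19.99 CPM in library 3 by the rule. Only Irgm1 still passed the filter, at 31.1 against 12.3 CPM in library 2 and 33.98 against 3.25 CPM in library 3 (1.64 ± 0.59), the high values coming from 8 and 2 UMIs. Irgm1 too passed only through its high sums. Igtp held 13 and 0 UMIs in the high sums within the limit against 54 and 20 by the rule, and Gbp2 held 6 and 1 against 17 and 25. In library 2 the Igtp level within the limit was still 50.5 against 19.3 CPM.

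Antigen presentation by MHC class I differed both by the rule and within the limit. B2m, the light chain of every class I molecule, stood within the limit at 571 CPM in high against 175 CPM in negative cells of library 2, and 612 against 101 CPM in library 3, with a log2 fold change of 2.04 ± 0.29 and an adjusted p of 0.000207 in DESeq2. High cells stood above negative cells in both libraries. A single cell held 12 of the 36 high-cell UMIs of library 3, and no cell held more than 13 of the 147 of library 2. By the rule B2m stood higher still, at 1029 against 230.2 CPM in library 2 and 893 against 125 CPM in library 3 (2.53 ± 0.23). The heavy chain H2-D1 stood at 233 against 87.7 CPM in library 2 and 119 against 38.9 CPM in library 3 (1.47 ± 0.25), where 1 cell gave 5 of 7 high-cell UMIs in library 3. H2-K1 stood at 101 against 49.1 CPM in library 2 and 33.98 against 27.6 CPM in library 3 (0.97 ± 0.29), and reads of these close relatives may be split between them. The nonclassical H2-T23 stood at 46.6 against 9.65 CPM in library 2 and 67.97 against 11.4 CPM in library 3 (2.37 ± 0.42). H2-T23 passed the filter there only through its high sums.

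Of the genes that make and load the peptides, Tapbp and Psmb10 passed within the limit, and only with the default prior of edgeR. Tapbp (tapasin, which holds class I molecules to the peptide transporter) stood at 97.1 against 36.4 CPM in library 2 and 119 against 17.9 CPM in library 3, with 1.73 ± 0.29. Psmb10, a catalytic subunit of the immunoproteasome, stood at 120.4 against 42.99 CPM in library 2 and 119 against 16.2 CPM in library 3 (1.78 ± 0.29), and the proteasome activator Psme1 at 109 against 46.1 CPM in library 2 and 136 against 43.8 CPM in library 3 (1.37 ± 0.28). Psmb8, another immunoproteasome subunit, had 2.52 ± 0.33 by the rule and 0.42 ± 0.38 within the limit. The peptide transporters Tap1 and Tap2 did not pass the filter, with 8 and 5 high-cell UMIs in library 2 and 1 each in library 3. The general chaperones Pdia3, Canx and Calr ran from -0.25 to 0.02. In all 7 of 13 tested members were at least 2-fold higher in both libraries within the limit and 10 of 15 by the rule. Of all genes tested 0.785% and 2.75% were. The default prior of edgeR called 5 and 11 members higher, and 0.238% and 1.6% of all genes tested. Within the limit H2-D1, H2-T23, Tapbp and Psmb10 had adjusted p values of 0.00451, 0.0194, 0.012 and 0.00509 with the default prior of edgeR. H2-T23, Tapbp and Psmb10 could not pass the filter by their negative sums alone. The counts thus lean upward, and the p values of H2-T23, Tapbp and Psmb10 are no support. Against negative cells matched on UMIs all 4 calls were lost, with adjusted p values of 0.352, 0.188, 0.408 and 0.352 by the same test, at log2 fold changes of 1.21, 1.98, 1.58 and 1.59. B2m kept its call there, at 1.998 and an adjusted p of 0.00182 with the default prior of edgeR.

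Of the chemokines, most Cxcl10 and Ccl2 UMIs of the high arm lay in cells over the limit. Cxcl10, which draws T cells, stood by the rule at 87.99 against 29.98 CPM in library 2 and 673 against 15.4 CPM in library 3, and its 49 UMIs in the high cells of library 3 were 0 within the limit. In library 2 its level within the limit was 15.5 CPM in high and 30.3 CPM in negative cells. Ccl2 went from 20 and 22 high-cell UMIs to 1 and 0. Cx3cl1, the neuronal ligand of the microglial receptor Cx3cr1, stood lower within the limit, at 551 against 806 CPM in library 2 and 748 against 1215 CPM in library 3, a log2 fold change of -0.58 ± 0.17 that passed no test after adjustment.

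The gate is a cut in a graded sum, and some of the same genes were read at each step of it in library 2 within the limit. Depth differed over the steps, with a median of 2758 UMIs at 0, 3268 at 2 and 3861.5 at 3 gate UMIs. Shisa5 stood at 64.9 CPM (54.9 to 76.3), with exact Poisson 95% intervals in parentheses, in cells with 0 gate UMIs, 78.8 CPM (56.6 to 107) with 1, 123 CPM (72.7 to 194) with 2 and 193 CPM (110.5 to 314) with 3, in 746, 160, 45 and 22 cells. Cells just outside and just inside the gate thus had overlapping Shisa5 intervals. B2m stood at 175 CPM (159 to 194) with 0, 273 CPM (195 to 371) with 2, 447 CPM (315 to 616) with 3 and 706 CPM (569 to 866) with 5 or more gate UMIs. Oasl2 stood at 13.6 CPM (1.65 to 49.3) with 2, 48.3 CPM (13.2 to 124) with 3 and 202 CPM (92.5 to 384) with 4. Its intervals overlapped between 2 and 3 and not between 2 and 4, and with 5 or more it stood at 146 CPM (87.8 to 228). Not every gene rose at each step. Psmb10 stood at 193 CPM (110 to 314) with 3 and 67.4 CPM (13.9 to 197) with 4. H2-D1 stood at 121 CPM (93.1 to 155) with 1 and 54.5 CPM (23.5 to 107) with 2. All of these intervals cover counting error only, and cells of a single library are not replicates.

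**Figure D3:**
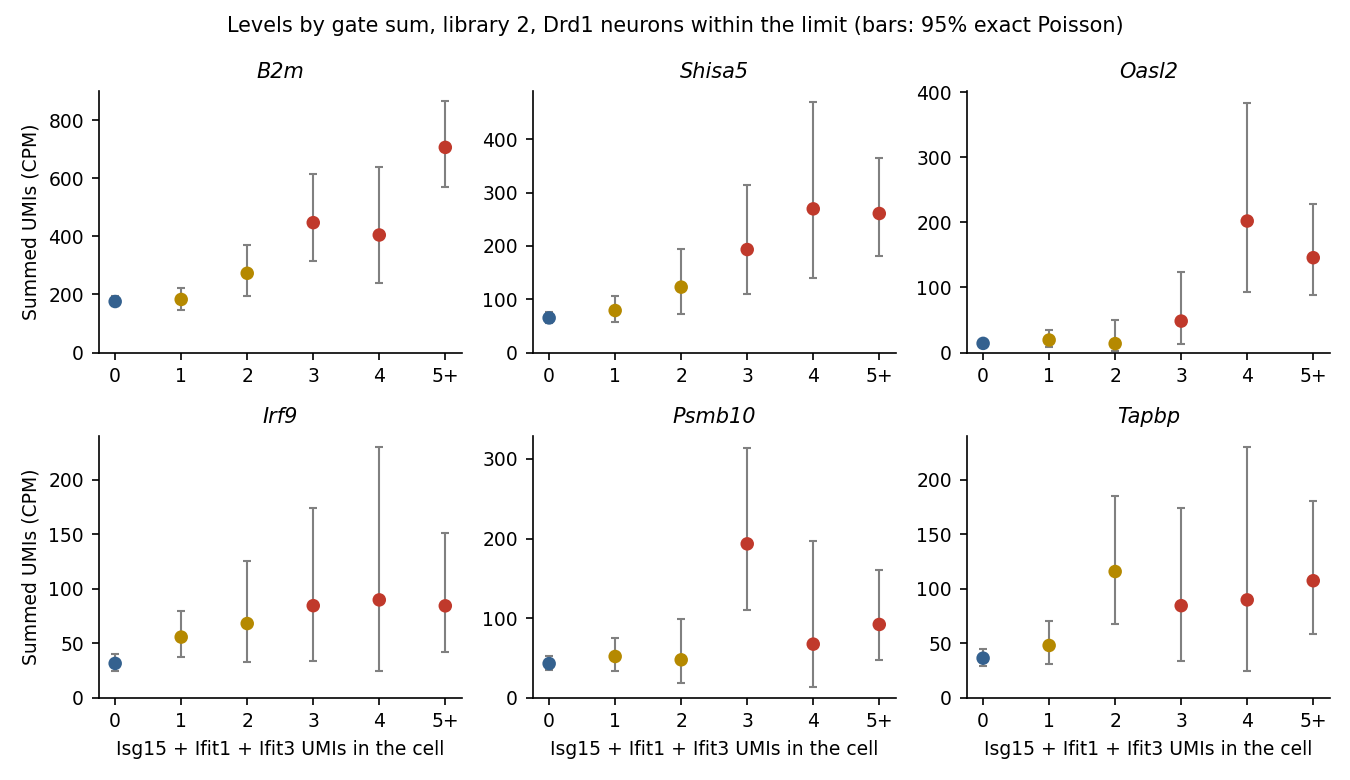
Summed CPM of 6 genes against the number of Isg15, Ifit1 and Ifit3 UMIs in the cell, for Drd1 neurons of library 2 within the limit (negative blue, intermediate ochre, high red). Bars are exact Poisson 95% intervals of the summed UMIs, and the 6 steps hold 746, 160, 45, 22, 13 and 35 cells. The level of Shisa5 is 123 CPM at 2 gate UMIs, while Oasl2 is at 13.6 CPM there.

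Genes of spiny neuron identity were tested next. Of 29 tested members of the Drd1 identity list, 23 were lower in high cells in both libraries by the rule, with a median of -0.42, where 37.7% of all genes tested were. Within the limit 17 of 29 were, with a median of -0.20, where 32.6% of all genes tested were. None passed a test after adjustment in either set. Tac1, the substance P precursor, stood higher, at 3215 against 2520.1 CPM in library 2 and 3348 against 1847 CPM in library 3 (0.62 ± 0.20). Adcy5, the striatal adenylyl cyclase that dopamine receptors act on, stood lower, at 419 against 619.8 CPM in library 2 and 391 against 917 CPM in library 3 (-0.77 ± 0.23). Ppp1r1b (DARPP-32), a phosphatase inhibitor downstream of it, stood at 1013 against 1456 CPM in library 2 and 1376 against 2010.5 CPM in library 3 (-0.50 ± 0.16). The transcription factor Foxp1 had -0.77 ± 0.30.

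Of 20 tested genes that mark subtypes or regions of the striatum, 5 were higher and 9 lower in both libraries within the limit, where 25.2% and 32.6% of all genes tested were, with a median of -0.39. Penk, the enkephalin precursor and a marker of Adora2a neurons, stood higher within the limit at 1025 against 745 CPM in library 2 and 3466 against 1504 CPM in library 3, with 0.85 ± 0.25 and an adjusted p of 0.0388 with the default prior of edgeR. In library 3, 7 of 12 high cells with at least 10 UMIs each held 200 of its 204 UMIs, and 34 of 184 negative cells held 767 of 927. Tshz1, a zinc finger transcription factor, stood at 276 against 118 CPM in library 2 and 544 against 338 CPM in library 3 (1.02 ± 0.22), with an adjusted p of 0.0369 with the default prior of edgeR. With UMI matching as well, neither call held (adjusted p = 0.352 for Penk and 0.139 for Tshz1, default prior of edgeR). Lypd1 and Pcdh8 were higher in both libraries (0.82 ± 0.24 and 1.14 ± 0.36), and Dlk1 stood lower, at 23.3 against 78.5 CPM in library 2 and 33.98 against 127 CPM in library 3 (-1.76 ± 0.33). DESeq2 called none of these 5 genes in either set.

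Sst and Npy, peptides of a class of striatal interneurons, stood far lower in high cells. Within the limit Sst stood at 69.9 against 407 CPM in library 2 and 0 against 514 CPM in library 3, with -2.96 ± 0.28 and an adjusted p of 2.74e-10 with the default prior of edgeR, and Npy had -2.54 ± 0.53. Both were carried by few negative cells. In library 2, 4 of 746 negative cells with at least 10 UMIs each held 733 of 928 Sst UMIs, and in library 3, 2 of 184 held 311 of 317. The share of cells with an Sst UMI was 21.4% of high and 23.2% of negative cells in library 2. DESeq2 gave Sst and Npy adjusted p values of 1 each within the limit, and 0.00015 and 0.0176 by the rule.

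Among genes of neuronal signalling, most receptors and channels had lower values, without passing a test. Among glutamate and GABA receptor subunits 15 of 25 tested were lower in both libraries within the limit, with a median of -0.31, and among voltage-gated channels 21 of 36, with a median of -0.33. Of all genes tested there, 32.6% were lower in both libraries. Grm5, the metabotropic glutamate receptor mGluR5, stood at 380.5 against 611 CPM in library 2 and 374 against 803 CPM in library 3 (-0.80 ± 0.20). Kcnj3, a subunit of the potassium channels opened by G proteins, stood higher, at 58.2 against 23.7 CPM in library 2 and 119 against 27.6 CPM in library 3 (1.57 ± 0.32). The synaptic vesicle list had a median of 0.02, with 8 of 25 higher and 7 of 25 lower in both libraries. The shares over all genes tested were 25.2% and 32.6%. No member of these 3 lists passed a test after adjustment in either set.

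Subunits of oxidative phosphorylation stood higher as a group. Within the limit 32 of 40 were higher in both libraries, where 25.2% of all genes tested were, with a median of 0.45, and none passed a test after adjustment. The summed list stood at 27104 against 23968 CPM in library 2 and 31844 against 18054 CPM in library 3. High cells were deeper, and against negative cells matched on UMIs the median of the 40 was 0.35. Whether depth or RNA quality has a part in this was not tested beyond that match.

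**Figure D4:**
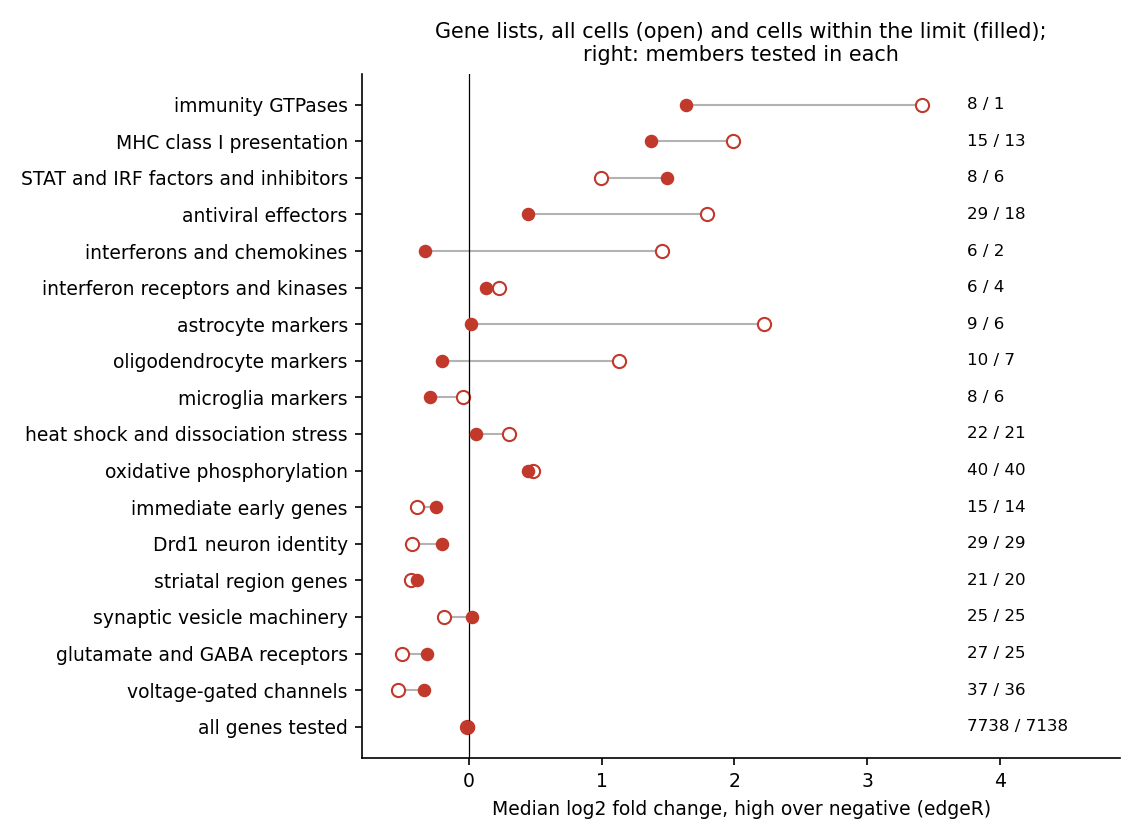
Median log2 fold change, high over negative, of the tested members of 18 gene sets, in all cells (open circles) and within the limit (filled circles), with the number of members tested in each at the right. Immunity GTPases move from 3.41 with 8 members to 1.64 with 1, MHC class I presentation from 1.99 to 1.37, and astrocyte markers from 2.23 to 0.02, the last by the way the limit is set. Genes of low level could pass the filter through the high arm alone, so the medians of interferon lists lean upward.

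Immediate early genes are those that neurons transcribe after activity. Of 14 tested within the limit, 2 stood higher in both libraries and 7 lower, where 25.2% and 32.6% of all genes tested did. Within the limit Jun stood at 124 against 36.4 CPM in library 2 and 102 against 42.2 CPM in library 3, with 1.67 ± 0.27 and an adjusted p of 0.00681 with the default prior of edgeR. In library 3, 1 cell held 4 of its 6 high-cell UMIs, and with UMI matching as well the adjusted p was 0.104 with the default prior of edgeR. Fos stood at 62.1 against 39.5 CPM in library 2 and 153 against 51.9 CPM in library 3 (0.99 ± 0.30), whereas Egr1 had -0.46 ± 0.18. The median of the 14 tested was -0.25. The heat shock and dissociation stress list had a median of 0.06 within the limit and 0.30 by the rule. Mt1, a metal-binding metallothionein, had 2.37 ± 0.38 by the rule and 0.62 ± 0.18 within the limit.

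The default prior of edgeR also called 7 genes within the limit that no list held. Among those higher in high cells were Chgb (chromogranin B, of dense-core vesicles), Deptor (an inhibitor of the mTOR kinase), Hist1h2bc (a histone), Cdhr1 (a cadherin) and Ralyl. Dpy19l3 was lower. DESeq2 called none of the 7 within the limit, and with UMI matching as well the default prior called none of them.

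The rule did not use the viral constructs, and no test of them could reach a p under 0.5 with 2 libraries. None of TEV, tTA and mCherry was higher in CPM in both libraries, or lower in both, within the limit. By the rule TEV was lower in CPM in both libraries, and tTA and mCherry were mixed. The shares of cells below are another measure than this summed amount. After thinning each cell to 1500 UMIs, TEV was found in 41 of 95 high cells of library 2 (43.2%, exact 95% interval 33.0 to 53.7) and 242 of 786 negative cells (30.8%, 27.6 to 34.1), and in 6 of 14 (42.9%, 17.7 to 71.1) and 80 of 190 (42.1%, 35.0 to 49.5) of library 3. The mean difference was 6.56 points ± 8.21 (SD, n = 2 libraries), exact sign-flip p = 0.5. For tTA it was -1.43 points ± 10.1 and for mCherry -2.11 points ± 8.18, each with p = 1 in the exact sign-flip test. Without thinning the TEV difference was 20.2 points, in arms of unequal depth. As a background, cells of the same UMI range with no UMI of the 4 neuron genes had TEV in 3.79% of 211 cells (library 2) and 2.48% of 322 cells (library 3) after thinning, at median depths of 2144 and 3482.5 UMIs. Thinned mCherry shares were 14 of 95 high (14.7%) and 87 of 786 negative cells (11.1%) in library 2, over a background of 5.21%. In library 3 they were 0 of 14 (exact 95% interval 0 to 23.2%, and up to 21.4% by 3 counts of the total), and 15 of 190 (7.89%), over 2.17%. Within the limit the thinned TEV difference was 14.3 points ± 10.2, higher in both libraries, with p = 0.5 in the exact sign-flip test. Against negative cells matched on UMIs the thinned difference was 8.13 points ± 1.40 for TEV and 3.47 points ± 1.54 for tTA by the rule, both higher in both libraries (exact sign-flip p = 0.5). With the limit and the match together these were 12.5 points ± 9.88 for TEV and 2.86 points ± 4.04 for tTA (exact sign-flip p = 0.5 and p = 1).

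Adora2a neurons, chosen by the mirrored rule, are the most similar cells in these libraries. At full depth the share of high cells among Drd1 neurons was 1 of 61 (1.64%, 0.0415 to 8.80) in library 1, 95 of 1117 (8.50%, 6.94 to 10.3) in library 2 and 14 of 242 (5.79%, 3.20 to 9.52) in library 3, with exact 95% intervals. Among Adora2a neurons it was 0 of 68 (0%, 0 to 5.28), 44 of 754 (5.84%, 4.27 to 7.76) and 6 of 192 (3.12%, 1.16 to 6.68). The Drd1 share was higher in all 3 libraries, by 2.32 points ± 0.592 (SD, n = 3), with p = 0.25 in the 2-sided exact sign-flip test, the smallest that 3 libraries allow. In library 1 this rests on 1 high cell, which was over the limit. After thinning to 1500 UMIs the difference was 0.314 points ± 0.942 with p = 1 in the same exact test, and the sign in library 3 was opposite. Within the limit at full depth the shares were 70 of 1021 (6.86%, 5.38 to 8.58) of Drd1 and 24 of 677 (3.55%, 2.28 to 5.23) of Adora2a neurons in library 2, and 12 of 233 (5.15%, 2.69 to 8.82) and 0 of 168 (0%, 0 to 2.17) in library 3. In library 1 they were 0 of 57 Drd1 and 0 of 58 Adora2a neurons. Over the limit 26.0% of Drd1 and 26.0% of Adora2a neurons of library 2 were high.

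**Figure D5:**
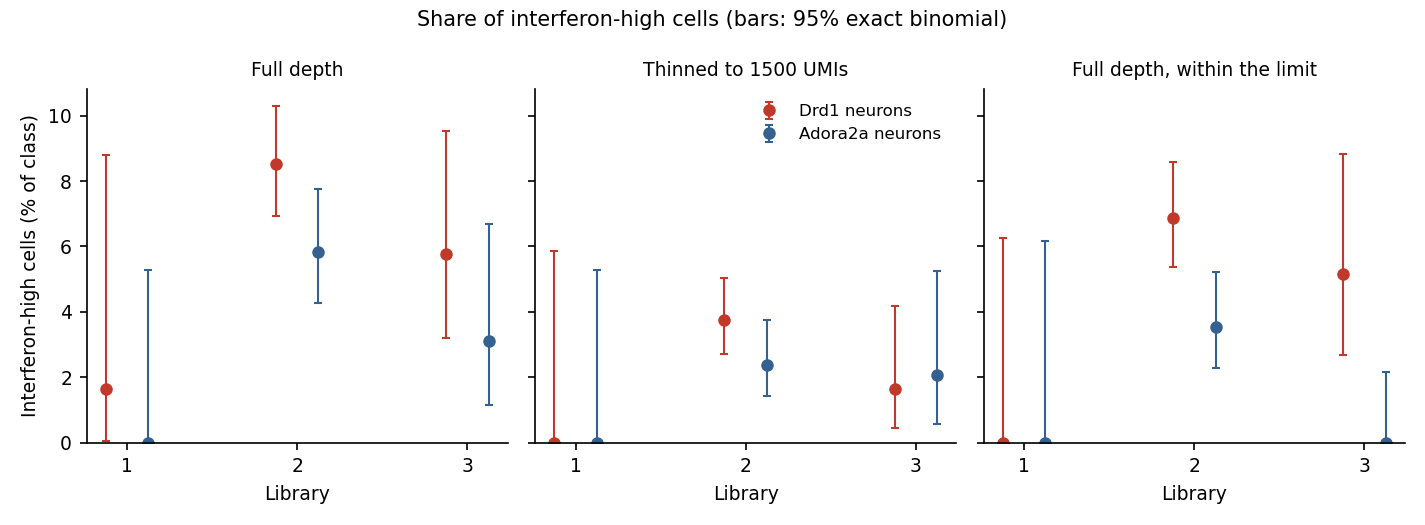
Percent of Drd1 neurons (red) and Adora2a neurons (blue) that were interferon-high in libraries 1 to 3, at full depth, after thinning to 1500 UMIs, and at full depth within the limit. Bars are exact binomial 95% intervals and cover counting error only. The class difference of 2.32 points at full depth is 0.314 points after thinning.

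The same genes stood high in interferon-high Adora2a neurons of library 2 within the limit, 24 high and 513 negative cells. There B2m stood at 399 against 180.0 CPM, Oasl2 at 123 against 9.80 CPM and Shisa5 at 235 against 58.2 CPM. These come from 1 library and carry no replicate check. The interaction of arm and class could not be fitted, because library 3 held 6 high Adora2a neurons and a single library remained. Whether the response differs between the classes was therefore not tested.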

How the data were processed

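Single cells of the nucleus accumbens were profiled with 10x 3' chemistry in 3 libraries of 1 group. The deposited matrix holds raw UMI counts per gene and cell, made by the authors with Cell Ranger 3.0 on mm10 per the submitters' processing notes (3.0.0 per the file headers). The 3 libraries share 1 matrix of 11625 cells and 28001 features, and whether they were thinned to equal depth is not given in the sources used here. Libraries were told apart by barcode suffix. The sign-flip p-values rest on the difference within each library. Where its sign is the same in all libraries compared, p takes its smallest possible value whatever the spread between them. That spread may be technical. In the gene tests the library block takes out the level of each library, and 1 residual degree of freedom remains. The default prior of edgeR and DESeq2 borrow variance from other genes. A small adjusted p from them is no measure of the spread of that gene between libraries.

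Cells and arms followed the rule above, and the members and gene lists were chosen with earlier results of these data known. Raw counts were summed per library and arm and tested in edgeR 4.0.16 (R 4.3.3; quasi-likelihood test, robust prior, TMM, filterByExpr, library as block, Benjamini-Hochberg threshold 0.05). Pairing by library needs no further check, because the high and negative sums of a library are cells of the same preparation. The 9 genes of the rule stayed in library sizes and out of the tests. DESeq2 1.42.0 and the default prior of edgeR were alternatives. The fit with the default prior also estimated dispersions in a separate step beforehand, so it differed from the main fit in more than the prior. On simulated counts with known changes the robust prior recovered no changed gene at this number of sums, and the alternatives recovered some, so that its count of 0 says little.

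Shares and medians were compared with exact sign-flip permutation tests over libraries. Thinning drew each cell to 1500 UMIs. Genes were named as members of fixed lists, whether or not they passed, or as called by an alternative. No doublet was removed in the main result. Scrublet (scanpy 1.11.5, expected rate 0.06) marked 57, 2 and 17 cells of libraries 1 to 3, and an alternative left out the cells with the highest scores. The limit of 0.8% on non-neuronal marker UMIs was added after the data were seen. Some called genes are not reported here.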

Additional observations from a re-analysis of the deposited data

How the results depend on the processing

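The designed edgeR test called 0 genes. It also called 0 under each of the 12 alternatives of cells, filter, scaling or gate that kept its robust prior and gave a count, the fit without the library as replicate block included (0 genes). Leaving out library 1, which was not in the fit, gave 0, and leaving out library 2 or 3 left 1 library and no test. DESeq2 called 58 genes and the default prior 131. Within the limit of 0.8% these were 2 and 20, and with negative cells also matched on UMIs 1 and 6. The cause of these differences was not tested.

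The fold changes of 46 named genes gave 748 values under 18 alternatives, and 744 kept their sign. The other 4 were Ifitm3 within the limit, at -0.11 and, with the default prior, -0.11, and with UMI matching at -0.14 and -0.14. A gene under the filter in an alternative gave no value and was not counted. Cxcl10 and Ccl2 gave none within the limit, although their library 2 levels were lower in high cells there. Cxcl10 was found in 5.71% of high and 9.25% of negative cells, and Ccl2 in 1.43% and 4.16%. Without thinning, the construct differences were 20.2 points (TEV), 9.29 points (tTA) and 7.12 points (mCherry). With 1 of the 2 libraries left out, the thinned differences ran from 0.752 to 12.4 points for TEV, from -8.57 to 5.71 for tTA and from -7.89 to 3.67 for mCherry. The difference in the share of high cells between Drd1 and Adora2a neurons was 0.314 points after thinning, and at full depth 2.15 to 2.66 points with 1 library left out. The difference in median UMIs ran from 852 to 2083.5 with 1 library left out.

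Depth limits library 3 most, where 1 UMI of the high sum within the limit was worth 17.0 CPM. A gate of 5 UMIs, and the removal of each cell with a UMI of another type, left 1 library and gave no count. The interaction with Adora2a neurons could not be fitted.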
